A study of Mus musculus with 8 samples.

Results

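The livers of male db/db mice were examined for RNA of 8 marker genes of the biliary epithelium and of simple epithelia: Epcam, Krt7, Krt19, Krt8, Krt18, Sox9, Cd24a and Cldn7. The genes were chosen by symbol, with earlier results of these data known, and all 8 were found among the 21532 genes of the deposited table. All 8 mice carried the db/db genotype, a defect of the leptin receptor that leads to obesity and diabetes. From 8 weeks of age, 4 mice received control and 4 received AF1 peptide, a synthetic ERα-derived peptide with a TAT sequence for entry into cells. Each was injected retro-orbitally 2 times a week over 5 weeks, at a dose of 5 mg/kg. One RNA-Seq library was made from the frozen liver of each mouse, so the mouse is the replicate. No lean mice were among these libraries.

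Cholangiocytes are the epithelial cells that line the bile ducts, and they are a small part of the liver beside the hepatocytes. Keratins form filaments only as pairs of a type II and a type I protein. Hepatocytes carry the pair of Krt8 (type II) and Krt18 (type I), and cholangiocytes carry this pair together with Krt7 (type II) and Krt19 (type I). Epcam is an adhesion protein of cholangiocytes and liver progenitor cells. Cldn7 is a tight junction claudin that binds Epcam, Sox9 is a transcription factor of the biliary lineage, and Cd24a is a surface glycoprotein that B cells, neutrophils and red blood cell precursors carry too. In chronic liver injury, duct-like cells can expand and hepatocytes can raise Krt8 and Krt18. In whole liver, fewer cells of a type and less RNA per cell cannot be told apart.

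The comparison asked whether AF1 peptide treatment moved these epithelial genes in diabetic livers. None of the 8 genes differed between the groups beyond the spread between mice, and the values of the groups overlapped for each of them. Krt8 had a mean in peptide-treated mice of 0.783 times that in control mice, a difference that rested mainly on 1 control mouse. Among related genes chosen for comparison, Cldn1, Tjp3, Anxa5 and Tnfrsf12a were called lower and Anxa13 and Notch3 higher with AF1 peptide at an unadjusted p value. Of these 6, Cldn1 and Anxa5 were called in all 20 alternatives, and each of the others lost its call in at least 1. Over the whole table, 0 genes passed an adjusted p value of 0.05 by limma or edgeR and 3 by DESeq2, and 990 had an unadjusted limma p value under 0.05.

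The sequences before the start sites of 4 of the genes are shown because Krt8 and Krt18 were expressed far above Krt7 and Epcam in the same livers. Per kb of exon, the mean level of Krt8 was 859 times that of Krt7 and 344 times that of Epcam. The exon length used for Krt7, 7049 bases, joins all its annotated isoforms, and the 859 depends on it. RefSeq promoters were matched for 5 of the 8 genes, and each run holds the 250 bases before a start site, 5′ to 3′. Their build is GRCm38.p6, not the mm39 build that the submitters' processing notes name. Capitals mark the GC box GGGCGG, searched on both strands.
Krt8 (GRCm38.p6, chr15:102004343-102004592, reverse strand): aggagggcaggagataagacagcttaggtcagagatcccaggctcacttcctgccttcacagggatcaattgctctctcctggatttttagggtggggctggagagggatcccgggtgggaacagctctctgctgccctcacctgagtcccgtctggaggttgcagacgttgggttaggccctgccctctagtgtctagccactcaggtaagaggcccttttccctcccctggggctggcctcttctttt
Krt18 (GRCm38.p6, chr15:102027966-102028215, forward strand): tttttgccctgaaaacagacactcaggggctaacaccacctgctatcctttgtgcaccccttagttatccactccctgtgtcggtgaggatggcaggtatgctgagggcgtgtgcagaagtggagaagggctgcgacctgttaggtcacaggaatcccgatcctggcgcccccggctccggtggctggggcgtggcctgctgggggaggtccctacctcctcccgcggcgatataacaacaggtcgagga
Krt7 (GRCm38.p6, chr15:101412153-101412402, forward strand): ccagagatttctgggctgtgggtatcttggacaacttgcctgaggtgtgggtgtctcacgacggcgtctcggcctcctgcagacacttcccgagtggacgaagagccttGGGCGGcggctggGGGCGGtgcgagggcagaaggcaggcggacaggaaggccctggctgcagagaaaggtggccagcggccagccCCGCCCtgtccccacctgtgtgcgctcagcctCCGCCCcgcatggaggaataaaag
Epcam (GRCm38.p6, chr17:87635729-87635978, forward strand): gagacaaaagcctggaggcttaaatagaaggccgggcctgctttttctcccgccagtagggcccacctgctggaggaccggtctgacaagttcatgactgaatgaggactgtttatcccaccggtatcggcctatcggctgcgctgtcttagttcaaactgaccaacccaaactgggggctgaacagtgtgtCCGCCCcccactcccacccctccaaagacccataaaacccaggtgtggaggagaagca

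The sequence of Krt7 held 4 GC boxes and that of Epcam held 1, and neither Krt8 nor Krt18 held one. Of 32851 promoter windows of the same length, 32.7% held at least 1. The TATA box TATAAA (in 12.4% of all windows) and the AP-1 motif TGANTCA (in 6.75%) were searched the same way, do not overlap these GC boxes, and were found in 0 of the 4 sequences. A match is a description of the letters and not a bound site.

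Recovered reads numbered 35260283 to 45117528 per control mouse and 23031880 to 43978158 per peptide-treated mouse. Hepatocyte markers were abundant, with Alb at 1224160 to 1997670 normalized counts per mouse. The mitochondrial share of the reads was 22.4 to 34.3% per control mouse and 20.8 to 37.8% per peptide-treated mouse. AF1 peptide replicate 1 stood apart from the other libraries in several marker lists, so values without it are given where they matter. The summed normalized count of 13 Kupffer cell and macrophage markers was 3741 in that mouse, while the remaining mice of its group had 9216 to 10339 and the controls 8335 to 10683.

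Read counts were divided by 1 size factor per library by the authors, and these values were compared as log2(normalized count + 1) with limma over the 15989 genes that averaged at least 10. A gene was called at an unadjusted p value under 0.05 with more than 1.3-fold change, a rule that called 3.69% of all tested genes. Of the 8 genes, 7 passed the filter, and Cldn7, with a mean of 8.66, did not. None of the 7 tested genes was called by limma (0 genes), and none had an unadjusted p value under 0.05 (0 genes, against 6.19% of all tested genes). edgeR and DESeq2 on the recovered reads also called 0 of the 7. The median log2 fold change of the 7 genes was 0.05, and that of all tested genes was -0.01. The groups did not overlap in 0 of the 8 genes and in 3.9% of all tested genes.

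Krt8, the type II keratin of hepatocytes and cholangiocytes, had 9471, 17215, 9425 and 7383 normalized counts in control replicates 1 to 4. It had 7959, 8499, 7351 and 10252 in AF1 peptide replicates 1 to 4. Control replicate 2 lay far above every other mouse, and the remaining 7 mice lay between 7351 and 10252, with control and peptide-treated mice mixed. The mean was 10873 ± 4338 in control and 8515 ± 1249 in peptide-treated mice (SD, n = 4 each). The log2 fold change was -0.29 (standard error 0.23, 95% interval -0.80 to 0.22, Benjamini-Hochberg adjusted p = 0.812 in limma), and a two-sided exact permutation test gave p = 0.371. Without control replicate 2, the log2 fold change was -0.04.

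Krt18, the type I partner of Krt8, had 7689, 12977, 9349 and 5602 normalized counts in control replicates 1 to 4 and 8066, 7854, 9189 and 9955 in AF1 peptide replicates 1 to 4. The highest and the lowest of the 8 values were both in control mice, so the peptide-treated mice lay within the range of the controls. The mean was 8904 ± 3118 in control and 8766 ± 986 in peptide-treated mice (SD, n = 4 each). The log2 fold change was 0.04 (standard error 0.22, 95% interval -0.45 to 0.53, adjusted p = 0.982 in limma), and its sign changed with the scaling of the libraries. The interval allows a change from 0.731-fold to 1.44-fold.

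**Figure D1:**
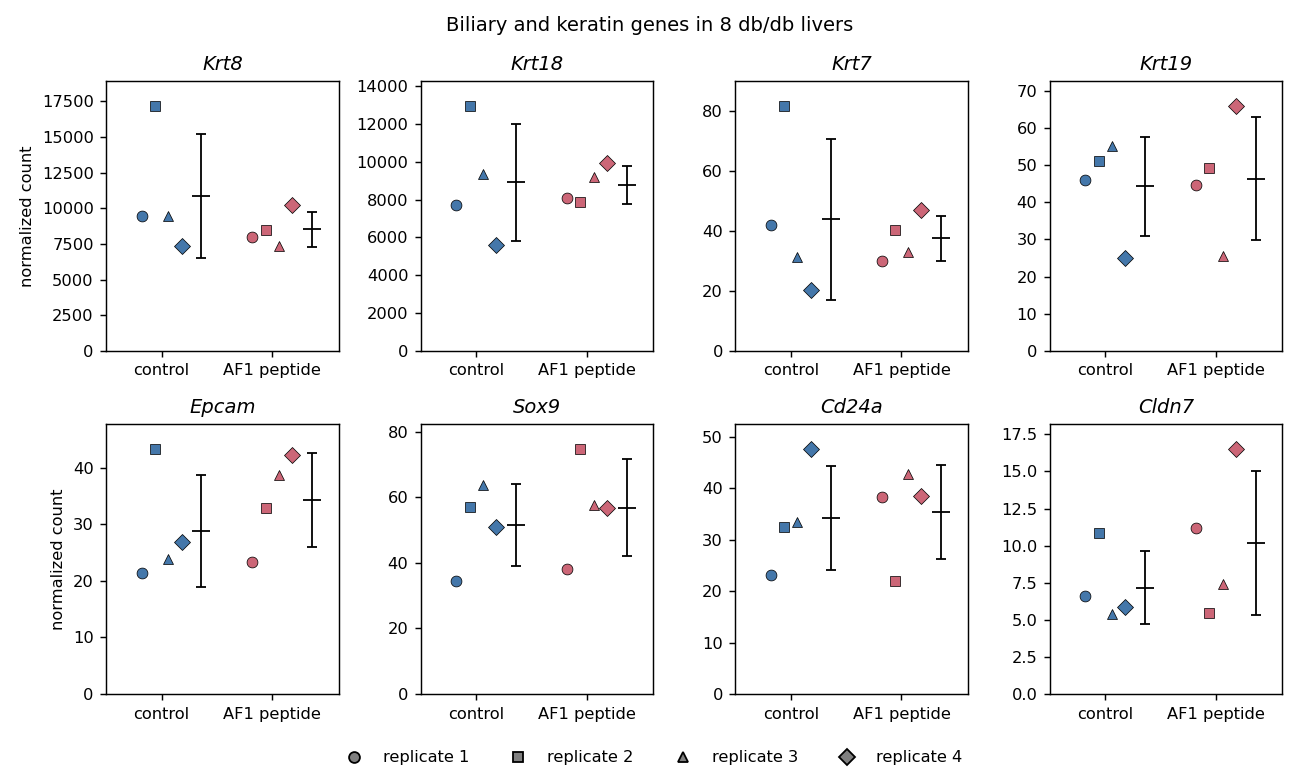
Normalized counts of the 8 genes in each mouse (y axis, linear from 0, a scale of its own per panel), by group (x axis). Marker shapes give the replicate number, and the bar beside each group is the mean ± SD of 4 mice. Control replicate 2 is highest for Krt8, Krt18, Krt7 and Epcam, and the groups overlap in every panel.

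The balance between the keratin partners was also compared, a comparison chosen after the values of both genes had been seen. The ratio of Krt8 to Krt18 normalized counts was 1.23, 1.33, 1.01 and 1.32 in control replicates 1 to 4 and 0.987, 1.08, 0.800 and 1.03 in AF1 peptide replicates 1 to 4. Replicates 1, 2 and 4 of the control group lay above every peptide-treated mouse, and control replicate 3 lay among them. The mean ratio was 1.22 ± 0.148 in control and 0.975 ± 0.123 in peptide-treated mice (SD, n = 4 each), a log2 difference of -0.33. A two-sided exact permutation test gave p = 0.0857, where 0.0286 is the smallest value that 4 against 4 mice allow, so this difference did not pass 0.05. It was -0.28 without control replicate 2 and -0.33 without AF1 peptide replicate 1 (exact permutation p = 0.171 each, with 0.0571 the smallest possible).

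**Figure D2:**
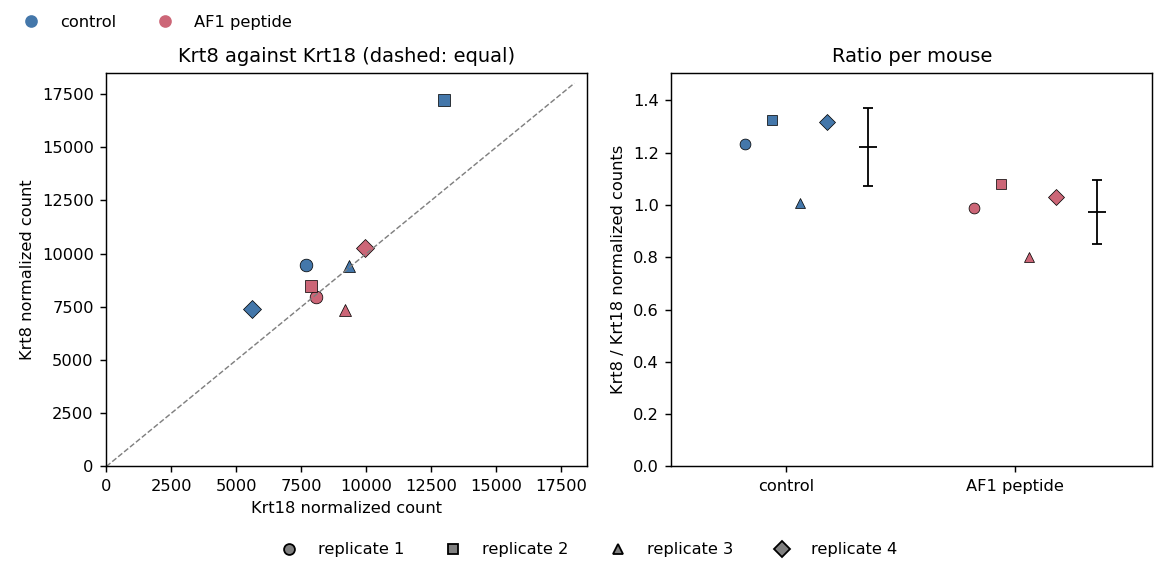
Left, Krt8 against Krt18 normalized counts, 1 point per mouse, with the dashed line at equal counts. Right, the ratio of Krt8 to Krt18 per mouse, with the mean ± SD of 4 mice. The ratios are 1.01 to 1.33 in control and 0.800 to 1.08 in peptide-treated mice.

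Krt8 has a processed pseudogene copy, Krt8-ps, and 29.7% of the 50-base words in the Krt8 transcripts of GENCODE M21 also occur in other genes, mostly this copy. Krt8-ps had 305 to 776 normalized counts per mouse, with control replicate 2 again highest, which was 0.0395 to 0.0653 of the Krt8 count. How the authors' counting placed reads that match both is not given in the sources used here. Adding the copy to Krt8 left the ratio to Krt18 at 1.28 ± 0.147 in control and 1.03 ± 0.129 in peptide-treated mice (SD, n = 4 each). The words of Krt18, Krt7, Cd24a and the other genes were shared with other genes at 0 to 2.75%. Krt8 overlaps Gm36026 and Krt7 overlaps Gm671 on the opposite strand, and whether the counting used strand is not given in the sources used here.

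Krt7, the type II keratin of bile ducts, had 42.0, 81.7, 31.3 and 20.1 normalized counts in control replicates 1 to 4 and 29.9, 40.2, 33.0 and 46.8 in AF1 peptide replicates 1 to 4. As for Krt8, control replicate 2 was highest by far and control replicate 4 was low, and the peptide-treated mice lay between them. The log2 fold change was -0.06 (standard error 0.37, 95% interval -0.89 to 0.77, adjusted p = 0.982 in limma), and it was 0.30 without control replicate 2.

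Krt19, the type I keratin of bile ducts, had 46.1, 51.2, 55.1 and 25.1 normalized counts in control replicates 1 to 4 and 44.8, 49.3, 25.5 and 66.1 in AF1 peptide replicates 1 to 4. One mouse of each group was at about 25 counts, and the others were mixed between 44.8 and 66.1. The means were 44.4 ± 13.4 in control and 46.4 ± 16.7 in peptide-treated mice (SD, n = 4 each), and the log2 fold change was 0.05 (95% interval -0.68 to 0.78).

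Epcam had 21.4, 43.3, 23.8 and 26.8 normalized counts in control replicates 1 to 4 and 23.3, 32.9, 38.7 and 42.2 in AF1 peptide replicates 1 to 4. Of the peptide-treated mice, 3 lay above the control median, but the highest value of all was in control replicate 2. The means were 28.8 ± 9.91 in control and 34.3 ± 8.27 in peptide-treated mice (SD, n = 4 each). The log2 fold change of 0.26 (standard error 0.28, 95% interval -0.37 to 0.89, adjusted p = 0.854 in limma) had an interval that includes 0, and an exact permutation test gave p = 0.429. Its claudin partner Cldn7 was near the limit of the counting, with 3 to 18 recovered reads per mouse. It had 6.59, 10.8, 5.40 and 5.86 normalized counts in control replicates 1 to 4 and 11.2, 5.48, 7.41 and 16.5 in AF1 peptide replicates 1 to 4. AF1 peptide replicate 4 was highest, at 18 reads (16.5 normalized counts, exact 95% Poisson interval 9.80 to 26.1, for counting error only), and a two-sided exact permutation test of the groups gave p = 0.286.

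Sox9, the transcription factor of the biliary lineage, had 34.6, 57.1, 63.8 and 51.1 normalized counts in control replicates 1 to 4 and 38.3, 74.9, 57.7 and 56.9 in AF1 peptide replicates 1 to 4. Replicate 1 was the lowest mouse of each group and the others were mixed. The log2 fold change was 0.13 (95% interval -0.43 to 0.70, adjusted p = 0.924 in limma). Cd24a had 23.1, 32.5, 33.5 and 47.7 normalized counts in control replicates 1 to 4 and 38.3, 21.9, 42.8 and 38.6 in AF1 peptide replicates 1 to 4. Its highest value was in a control mouse and its lowest in an peptide-treated mouse, and the log2 fold change was 0.05 (95% interval -0.59 to 0.69, adjusted p = 0.980 in limma). Cd24a is also made by blood cells, and the summed markers of B cells (1051 to 4376 normalized counts), neutrophils (75.6 to 298) and red blood cells (27127 to 123473) varied between the mice. Their part in the Cd24a values was not tested.

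The spread between mice was larger than counting of reads alone gives for every gene except Cldn7 in control mice. In control mice, Krt8 had a coefficient of variation of 39.9%, where counting alone gives 0.933%, and Krt18 had 35.0%, where it gives 1.03%. In peptide-treated mice these were 14.7% for Krt8 and 11.2% for Krt18. Krt7 had 61.2% in control mice, where counting gives 14.7%, and 20.3% in peptide-treated mice, where it gives 17.5%. For Cldn7, the observed and the counting values were 34.7% and 36.1% in control mice and 47.9% and 31.8% in peptide-treated mice. Epcam, Krt19, Sox9 and Cd24a lay between, at 24.1 to 35.9% over both groups against 13.6 to 18.1% from counting. For these 4 genes the limma intervals lay between 0.623-fold, the lower end for Krt19, and 1.86-fold, the upper end for Epcam. A change within the interval of a gene is not excluded for that gene. The smallest change that could be detected was not computed.

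The keratin pair that hepatocytes share was far above the markers of bile ducts. Per kb of exon (GENCODE M21), Krt18 had a mean of 6148 normalized counts and Krt8 of 4951 over the 8 mice, and Krt18 was above Krt8 in 8 of 8 mice. The ratio of Krt18 to Krt8 per kb was 1.03 to 1.70, without the reads of Krt8-ps. That copy had 0.0395 to 0.0653 of the Krt8 count, so the order is not firm in the closest mice. Krt19 followed at 24.5, so the lowest Krt8 value and the highest Krt19 value lay far apart. Epcam (14.4), Cd24a (13.5) and Sox9 (13.1) could not be ordered, since each was above the next in only 5 of 8 mice. Krt7 (5.76) and Cldn7 (4.45) were lowest and overlapped, and Krt7 was below Sox9 in 8 of 8 mice. The exon length of Krt7, 7049 bases, covers all its annotated isoforms, so its level per kb and its place in this order depend on that length. Before division by length, Krt7 averaged 40.6 normalized counts, against 31.6 for Epcam, 34.8 for Cd24a, 45.4 for Krt19 and 54.3 for Sox9.

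**Figure D3:**
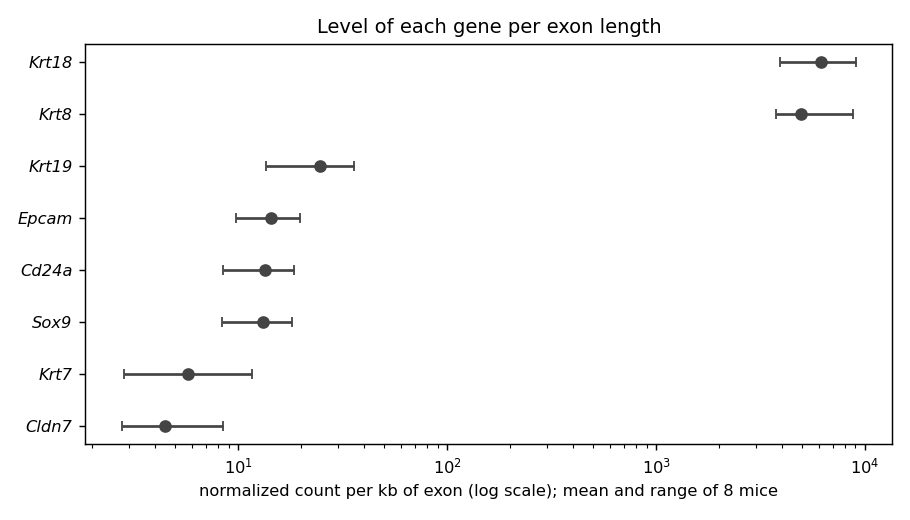
Mean normalized count per kb of exon of each gene (x axis, log scale), with bars from the lowest to the highest of 8 mice. Krt18 and Krt8 lie between 3755 and 9031, and the other 6 genes between 2.77 and 35.6.

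The same mice were high in several of the genes. Control replicate 2 was the highest control mouse for 5 of the 8 genes (Epcam, Krt7, Krt8, Krt18 and Cldn7), and AF1 peptide replicate 4 was the highest of its group for 6 (these 5 and Krt19). Over the 8 mice, 22 of the 28 pairs of genes had a positive Pearson correlation of log2(normalized count + 1), and 3 pairs were above 0.7. Krt7 and Krt8 had r = 0.90 (exact permutation p = 0.00285, adjusted p = 0.0799 over 28 pairs) and a Spearman rho of 0.81 (exact permutation p = 0.0218, adjusted p = 0.305). Without the 2 mice farthest from the median of Krt7, r was 0.65. Krt8 and Krt18 had r = 0.79 (exact permutation p = 0.0312, adjusted p = 0.291) and rho = 0.57 (exact permutation p = 0.151, adjusted p = 0.567), and r = 0.84 without the 2 mice farthest from the median of Krt8. The third pair, Krt7 and Krt18, had r = 0.86 (exact permutation p = 0.0171, adjusted p = 0.240) and rho = 0.60 (exact permutation p = 0.132, adjusted p = 0.567), but r = 0.054 without control replicates 2 and 4, so this relation rests on those mice. No pair passed an adjusted p value of 0.05 (0 of 28). Msln, a marker of the mesothelium that covers the liver and also carries these keratins, ranged from 6.70 to 118 normalized counts. The sum of 11 mesothelial markers was 371 in AF1 peptide replicate 4, against 106 to 146 in the rest of its group, and 215 in control replicate 2, within the 164 to 314 of the control mice. Their part in the keratin values was not tested.

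The genes whose pattern over the 8 mice was most like that of Krt8, among 12442 genes that averaged at least 50 normalized counts, were Capzb (r = 0.97), Eif4e2 (r = 0.97) and Ccn1 (r = 0.95). Krt18 itself came in position 227 in this ranking, and Krt8 in position 73 in that of Krt18, which was led by Abcc4 (r = 0.93). The closest genes were Wdr53 for Krt7 (r = 0.98), Marcksl1-ps4 for Krt19 (r = 0.95), Gm20605 for Epcam (r = 0.94), Prkce for Sox9 (r = 0.95), Nt5dc2 for Cd24a (r = 0.98) and Foxf1 for Cldn7 (r = 0.93). These genes are the highest of a search over many genes in 8 mice, and their values carry no test.

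Related genes were compared in 6 lists with 120 distinct tested genes. The rule called 1.79% of all tested genes higher and 1.9% lower. The 120 genes had a median log2 fold change of -0.06, and 2 of them were called higher and 4 lower. The limma p value of each of these 6, adjusted over all tested genes, was 0.763. The claudin and cell junction list held 2 of them, both lower, among 23 tested genes with a median log2 fold change of -0.11. Cldn1, the tight junction claudin of hepatocytes and bile ducts, had 357, 309, 378 and 306 normalized counts in control replicates 1 to 4 and 182, 212, 189 and 280 in AF1 peptide replicates 1 to 4, with no overlap between the groups. It fell by 0.66 on the log2 scale (standard error 0.15, unadjusted p = 0.00142 in limma). Tjp3, which encodes the junction scaffold ZO-3, fell from 1279 ± 155 normalized counts to 894 ± 247 (SD, n = 4 each), which is -0.56. on the log2 scale AF1 peptide replicate 1 was far lowest for Tjp3 at 530, the other peptide-treated mice had 947 to 1054, just below the lowest control mouse at 1059, and without replicate 1 the log2 fold change was -0.33. Tjp3 was not called without that mouse or without control replicate 3 (log2 fold change -0.51), nor with its own variance in place of one moderated over genes.

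Among the other biliary markers, 1 of 21 tested genes was called, and the median log2 fold change was -0.02. This was Anxa13, an annexin of polarized epithelia. It had 53.6, 53.2, 49.7 and 36.8 normalized counts in control replicates 1 to 4 and 113, 71.2, 51.9 and 84.5 in AF1 peptide replicates 1 to 4. AF1 peptide replicate 3 lay within the control range and the other 3 lay above it, and the log2 fold change was 0.68 (standard error 0.25, unadjusted p = 0.0198 in limma). Without control replicate 4, the log2 fold change of Anxa13 was 0.56 and it was not called. Without AF1 peptide replicate 1, Anxa13 was still called at 0.50, and Atp1b1 of the same list was called lower. Atp1b1 had 990 normalized counts in that mouse, 327 to 491 in the rest of its group and 465 to 679 in control mice.

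In the Notch and Hippo list, pathways that act on biliary fate, 1 of 28 tested genes was called, with a median log2 fold change of 0.04 over the list. Notch3, the Notch receptor of vascular mural cells, rose from 68.3 ± 6.87 normalized counts to 96.3 ± 17.4 (SD, n = 4 each), which is 0.48. on the log2 scale Its call was lost, at log2 fold changes of 0.40, 0.43 and 0.46, without AF1 peptide replicate 1, 3 or 4, and also without control replicate 2 (0.41) and with all libraries scaled to equal totals (0.39). The list of genes described in duct-like reactions had 2 of 24 tested genes called, both lower, and a median log2 fold change of -0.23. The summed normalized count of the list was 7631 in AF1 peptide replicate 1, the mouse low in macrophage markers, against 15543 to 19607 in the rest of its group and 14148 to 29061 in control mice. Without that mouse the median was 0.0058, 12 of the 24 genes had a negative log2 fold change in place of 18, and Anxa5 was the only gene called. Anxa5, a phosphatidylserine-binding annexin of many cell types, fell from 3584 ± 867 normalized counts to 2363 ± 509 (SD, n = 4 each), which is -0.60 on the log2 scale (unadjusted p = 0.0111 in limma). Tnfrsf12a, the receptor of the cytokine TWEAK, had 320, 694, 489 and 333 normalized counts in control replicates 1 to 4 and 156, 228, 393 and 306 in AF1 peptide replicates 1 to 4. The groups overlapped, the extremes were control replicate 2 and AF1 peptide replicate 1, and the log2 fold change was -0.77. Its call was lost without control replicate 2 (-0.54) or 3 (-0.71) and without AF1 peptide replicate 1 (-0.53) or 2 (-0.71), and also with limma without a trend and with its own variance.

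**Figure D4:**
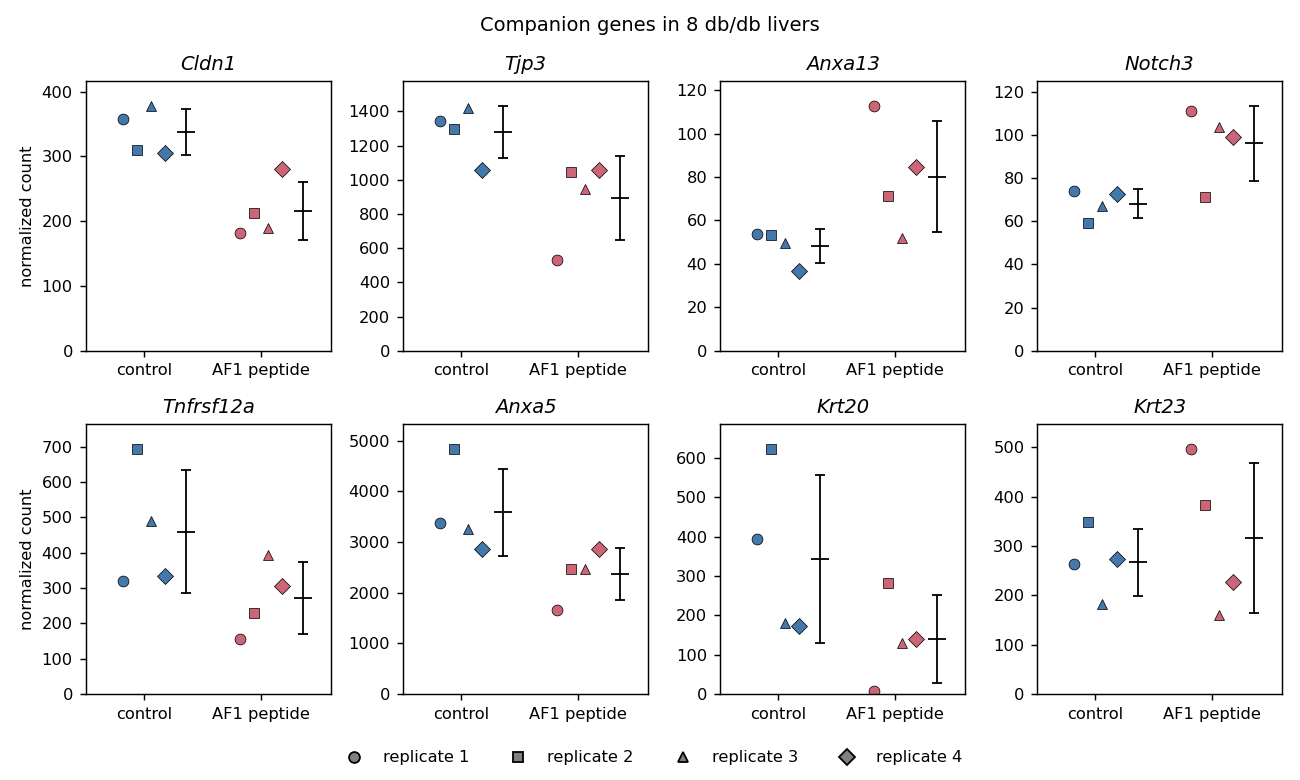
Normalized counts of 8 related genes in each mouse (y axis, linear from 0, a scale of its own per panel), by group (x axis), with the mean ± SD of 4 mice beside the points. Cldn1 does not overlap between the groups, and Krt20 ranges from 6.53 to 623.

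Of 18 other keratin genes, 7 were measured and 4 were tested, and none was called by limma (0 genes, and 0 at an unadjusted p value under 0.05). Their median log2 fold change was -0.03. Krt20, a type I keratin known from the gut epithelium, had 394, 623, 181 and 173 normalized counts in control replicates 1 to 4 and 6.53, 283, 130 and 139 in AF1 peptide replicates 1 to 4. The lowest value was that of AF1 peptide replicate 1 and the highest that of control replicate 2, and the log2 fold change of -1.91 had a 95% interval from -4.02 to 0.20. It was -0.78 without AF1 peptide replicate 1, and -1.35 with edgeR and -1.30 with DESeq2 on all 8 mice, and Krt20 was not called in these 3 fits. Krt23, another type I keratin, had 183 to 349 normalized counts in control and 161 to 497 in peptide-treated mice, with AF1 peptide replicate 1 highest. Krt79 had 25.1 to 40.4 normalized counts in control mice and 8.40 in AF1 peptide replicate 1, while the rest of its group had 42.2 to 51.1. Without replicate 1, the log2 fold change of Krt79 was 0.54 and the gene was called higher, among 457 of all tested genes.

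Partners of the keratin network, such as plakins and desmosome proteins, were called in 0 of 22 tested genes by limma (0 at an unadjusted p value under 0.05), with a median log2 fold change of -0.04. The smallest p values belonged to the desmosome gene Dsp (log2 fold change -0.26, 95% interval -0.56 to 0.04), to Fbf1, whose product binds keratin (0.53, 95% interval -0.09 to 1.16), and to the plakin gene Eppk1 (-0.27, 95% interval -0.62 to 0.08). Without AF1 peptide replicate 1, Fbf1 and Eppk1 were called, at log2 fold changes of 0.78 and -0.38. That fit called 457 higher and 491 lower of all tested genes. Fbf1 was above every other mouse in AF1 peptide replicate 2, at 7837 normalized counts against 2488 to 4459. Leaving that mouse out gave Fbf1 a log2 fold change of 0.24 and no call, and DESeq2 on all 8 mice called it at 0.64.

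**Figure D5:**
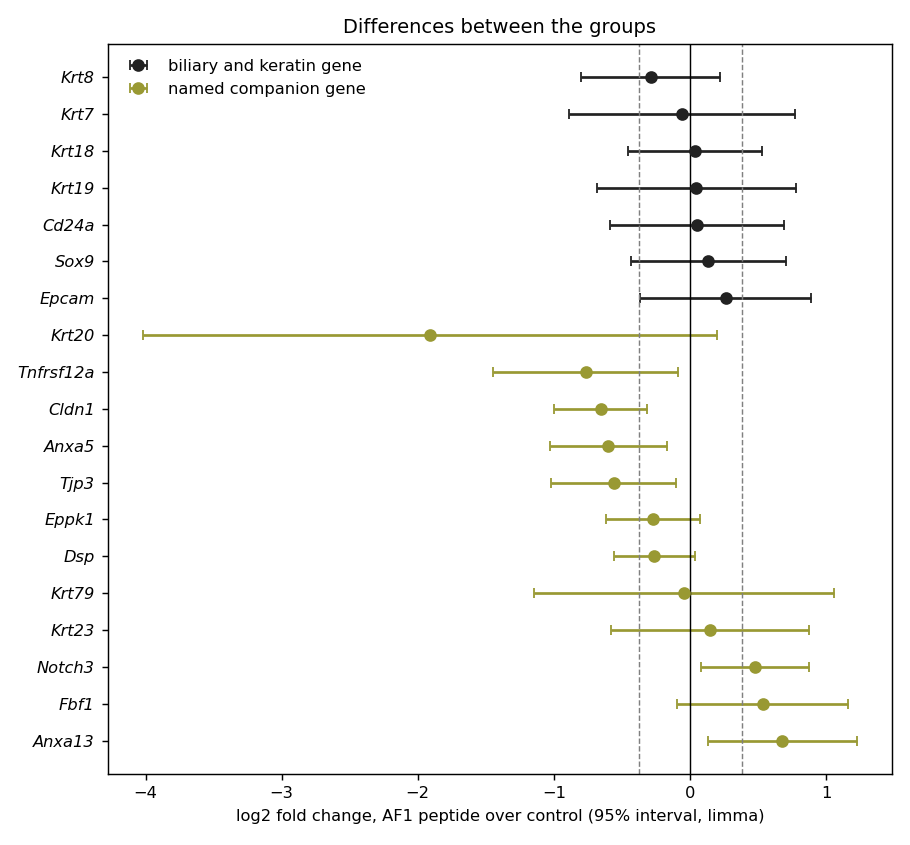
Log2 fold change of AF1 peptide over control (x axis) with its 95% interval from limma, for the 7 tested biliary and keratin genes and the named related genes. Solid and dashed vertical lines mark no change and a 1.3-fold change. The intervals of all 7 genes include 0, with log2 fold changes from -0.29 to 0.26.

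Markers of other cell types gave the setting of these values. None of 17 tested hepatocyte markers was called (0 genes by limma, 0 at an unadjusted p value under 0.05), with a median log2 fold change of -0.01. Without AF1 peptide replicate 1, the median was -0.16 and Fga and Tat were called lower, among 491 of all tested genes. Of the 17 markers, 16 then had a negative log2 fold change in place of 10. Tat had 68707 normalized counts in that mouse, 6311 to 9220 in the rest of its group and 7551 to 23826 in control mice. Of 13 macrophage markers, Adgre1 was called lower, at 68.4 ± 18.7 in control and 42.9 ± 10.7 normalized counts in peptide-treated mice (SD, n = 4 each), with AF1 peptide replicate 1 lowest at 27.1. Without that mouse, Adgre1 was not called. None was called (0 genes each by limma) of 4 mesothelial, 2 pancreas, 6 red blood cell, 6 B cell, 3 neutrophil, 12 stellate cell and 12 sinusoidal endothelial markers tested, and among these lists 1 gene, Stab1, had an unadjusted p value under 0.05. Without AF1 peptide replicate 1, 1 stellate cell marker was called higher, among 457 of all tested genes. The median log2 fold change of the stellate cell list was then 0.18 in place of 0.05. The other lists of this group still had no gene called. Summed stellate cell markers ranged from 9416 to 17952 normalized counts, sinusoidal endothelial markers from 8414 to 11022, and the 4 pancreas genes measured from 216 to 290. Cela1, at 181 to 250, made up most of the pancreas sum, and the other 17 of 21 pancreas genes were not found by symbol among the genes measured.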

How the data were processed

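Liver RNA of 4 control and 4 peptide-treated mice was sequenced from stranded mRNA libraries. Per the paper and the submitters' processing notes, the authors trimmed reads with Trim Galore 0.6.7, aligned them with HISAT2, used SAMtools 1.17 for sorting, and took gene counts from GenomicAlignments. The notes name mm39. The annotation and the use of strand are not given in the sources used here. The deposited values are a normalized signal, the read count divided by 1 size factor per library, and 100% of 172256 values gave whole reads within 0.001 of a read. Groups came from the sample labels.

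Log2(normalized count + 1) was fitted with limma 3.58.1 (R 4.3.3, intensity trend) over all genes with a mean of at least 10, and p values were adjusted by the Benjamini-Hochberg method over these. Single genes were also compared by two-sided exact permutation tests (scipy 1.17.1). On this scale the fold change of a low gene is understated. The fits were also run on simulated counts with known changes. All 8 genes are named, with the related genes called in each list, or else the 3 with the smallest p value, the 2 most abundant tested markers of each other cell type where a result turns on them, and the genes of most similar pattern. The genes and lists were chosen with earlier results of these data known, and the lists were written by hand. Words of 50 bases were compared in GENCODE M21.

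Chi-square per degree of freedom between replicates was 16.1 to 344, above sampling noise, and each library was counted as its own mouse. Alternatives were pseudocounts of 0.5 and 5, other filters, TMM factors, equal totals, other variance models, a replicate block, edgeR 4.0.16, DESeq2 1.42.0 and each mouse left out in turn.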

Additional observations from a re-analysis of the deposited data

Results flagged for a closer look

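In each group of 4 mice, the gap of the highest and of the lowest mouse to its neighbor was divided by the range of the group and compared with Dixon's critical value at the 95% level, in 86 groups, where chance gives about 4.3. A mouse stood apart in 6, and in 0 of the 16 groups of the 8 biliary and keratin genes. The sum of mesothelial markers was highest in AF1 peptide replicate 4 (gap over range 0.850, at 371 normalized counts against 146 in the next mouse). Red blood cell genes were highest in control replicate 4 (0.883, at 123473 against 44669) and lowest in AF1 peptide replicate 1 (0.888, at 27127 against 49185). Kupffer cell and macrophage markers were lowest in AF1 peptide replicate 1 (0.830, at 3741 against 9216). Stellate cell markers were lowest in control replicate 4 (0.880, at 10495 against 13016), the mouse with the lowest Krt18 and Krt7 of all 8. Recovered reads were highest in control replicate 1 (0.857).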

How the results depend on the processing

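In all 20 alternatives, 0 of the 7 tested biliary and keratin genes were called higher and 0 lower. Epcam and Krt8 kept the sign of their log2 fold change in each, at 0.14 to 0.47 and -0.45 to -0.04 with 1 mouse left out in turn. With equal totals, which moved the median of all tested genes from -0.01 to -0.10, Krt19 was at -0.042, Krt18 at -0.054 and Cd24a at -0.038. Krt18 was at -0.021 with edgeR and -0.022 with DESeq2. With 1 mouse left out in turn, the log2 fold change ranged from -0.36 to 0.30 for Krt7, -0.20 to 0.30 for Krt19, -0.16 to 0.24 for Krt18, -0.042 to 0.31 for Sox9, -0.12 to 0.26 for Cd24a, 0.14 to 0.62 for Cldn7, -0.11 to 0.43 for Krt23 and -0.29 to 0.54 for Krt79. Krt79 was at 0.00078 with a pseudocount of 5 and at 0.18 with edgeR and DESeq2. Over all genes, 286 were called higher and 304 lower, and 435 and 459 without a filter on low values, since more genes were tested. Equal totals gave 122 and 602, each gene's own variance 197 lower, no fold threshold 506 and 484, and leaving out 1 mouse 198 to 457 higher and 173 to 491 lower. In the related lists, 2 genes were called higher and 4 lower, with equal totals 1 and 7, with each gene's own variance 2 lower, and with 1 mouse left out 1 to 6 higher and 2 to 5 lower. Cldn1 and Anxa5 were called in all 20 alternatives. The causes of these moves were not tested.

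The correlation of the deviations from the group means was -0.0640 to 0.235 for same-numbered mice and -0.272 to 0.137 for different-numbered mice. These overlapping ranges do not settle whether replicate numbers pair the mice. The fit with the replicate block gave 341 genes higher and 392 lower, and called 0 of the 7 genes. It called Krt20 lower (log2 fold change -1.91), as did equal totals and the fit without AF1 peptide replicate 2 (-2.52), while without AF1 peptide replicate 1 Krt20 was at -0.78 and not called.

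The 6 low genes had 3 to 83 reads per mouse. Taken over the mice of a group, counting alone gives these genes a coefficient of variation of 13.6 to 36.1%.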
